A study of Mus musculus with 7 samples.

Results

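The transcriptome of the wild-type mouse egg is described here from 3 pools of ovulated oocytes (WT 1, WT 2 and WT 3), which are all the wild-type samples among the 7 samples of the series and were chosen by their genotype label. The other 4 samples are pools from Nlrp2-null females and were not compared. The wild-type females were C57BL/6 mice of 4 weeks, and 3 to 4 mice gave the roughly 150 oocytes of a pool. Cumulus-oocyte complexes were taken from the ampulla of the oviduct and stripped of their cumulus cells with 3 mg/ml hyaluronidase. About 20 ng of total RNA per pool was amplified with oligo d(T) and random primers before sequencing on an Illumina instrument. Hormone treatment of the females is not described in the sources used here. Pools were treated as the replicates, since each gathers the oocytes of several animals. The identifier of WT 3 is numbered higher than those of WT 1 and WT 2, which follow each other, and the labels do not say what the number stands for. Any effect linked to it cannot be told apart from that 1 pool. Because pools are bulk samples, fewer cells of a type and less RNA per cell cannot be told apart.

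An ovulated oocyte is arrested at metaphase of the second meiotic division and is nearly silent in transcription. Its RNA was made during growth in the follicle, stored with short poly(A) tails, and is translated or degraded in steps through maturation, fertilization and the first cleavages. The proteins it encodes build the egg coat, hold the meiotic arrest, signal to the surrounding cumulus cells, and carry the embryo until its own genome is switched on. Some of its transcripts come from maternal effect genes, whose loss in the mother halts the embryo. A poly(A) tail also sets how well a transcript is captured by oligo d(T), and random primers were used beside it.

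The deposited table listed 18951 gene symbols, each with a read in at least 1 of the 7 samples, and the wild-type pools held 71073973, 83184707 and 96330083 reads in it. Of these genes 13174 (69.5%) had at least 10 reads in every wild-type pool, which is the meaning of detected below. A further 4624 genes fell short of 10 reads in at least 1 pool, and 1153 genes (6.08%) were listed at 0 in each of the pools. A value of 0 allows up to 3 reads, which is 0.0422, 0.0361 and 0.0311 reads per 1000000 in WT 1, WT 2 and WT 3. Reads were amplified from little RNA and are not independent molecules, so such limits cover counting error only. A 0 can also come from how reads were assigned to overlapping or similar genes, so such genes are said to be listed at 0 and not to be absent. Protein-coding genes made up 17025 of the listed genes and 12524 of the detected ones. No listed symbol had the mt- prefix of genes of the mitochondrial genome, so these were not analysed and all ranks and shares below are among the listed genes. The ribosomal RNA precursor Rn45s took 1.06%, 0.557% and 0.669% of the reads of WT 1, WT 2 and WT 3.

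Levels of different genes are compared below in TPM (transcripts in each 1000000), computed from normalized counts and the summed exon length of each gene, so that they are corrected for length and have the same sum in each pool. A value after ± is the SD over the 3 pools throughout. A few genes held a large share of this total. The 10 most abundant genes held 9.88% ± 0.421 (SD, n = 3), and the 100 most abundant held 31.5% ± 1.16. In WT 1 a set of 414 genes made up 50% of the summed TPM, in WT 2 it was 393 genes and in WT 3 it was 361. WT 3 was therefore the most concentrated pool and WT 1 the least. Averaged over the pools, 121 genes above 1000 TPM held 33.8% of the total and 1748 genes between 100 and 1000 TPM held 45.1%. At the other end, 5716 genes above 0 and up to 1 TPM held 0.165% in all. The median was 3.41 TPM over all 18732 genes with a length and 12.03 TPM over the detected ones. Each pool's own list of 100 most abundant genes shared 98 members with the list made from the mean.

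**Figure D1:**
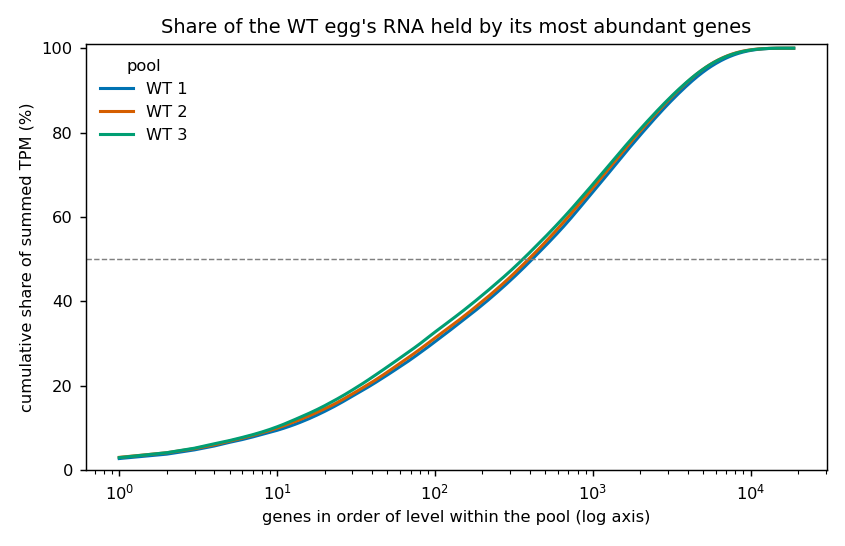
Cumulative share of the summed TPM (y axis, in percent) held by genes in order of their level within each pool (x axis, number of genes on a log axis), with 1 line for each of the 3 WT pools and a dashed line at 50%. The 3 lines run close together, and they cross 50% at 414, 393 and 361 genes in WT 1, WT 2 and WT 3.

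Zbed3 was the most abundant of the listed genes in the wild-type egg. It encodes a zinc finger protein that has been placed in the subcortical maternal complex, and lies on chromosome 13 (95323612 to 95337841, plus strand, GRCm38). Its level was 27400, 30220 and 29664 TPM in WT 1, WT 2 and WT 3, or 29095 ± 1493 TPM (SD, n = 3), which is 2419 times the median of the detected genes. Before any correction for length it took between 1.37% (WT 1) and 1.51% (WT 3) of all reads of a pool. Spin1, which encodes a reader of methylated histones, followed among the named genes with 9186, 9832 and 10392 TPM (9803 ± 603). The lowest pool of Zbed3 was far above the highest pool of Spin1. Bcl2l10, a member of the Bcl2 family of death regulators, had 8686, 9171 and 10709 TPM (9522 ± 1056), and its range overlapped that of Spin1.

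Gene starts are shown for the 3 most abundant named genes with a RefSeq entry in the source used, and for the egg coat gene Zp3. Bcl2l10 and H1foo, which ranked between Spin1 and Oosp1, had no such entry. The sequences shown differ in base composition. Each runs 5′ to 3′ on the gene's own strand from 250 bases before to 50 bases after the RefSeq start (build GRCm38.p6). Capitals mark the E-box letters CANNTG, the motif family bound by helix-loop-helix factors such as FIGLA, which regulates zona pellucida genes. The regions are chr13:95323355-95323654 (plus strand) for Zbed3, chr13:51100630-51100929 (plus strand) for Spin1, chr19:11691002-11691301 (minus strand) for Oosp1 and chr5:135979855-135980154 (plus strand) for Zp3.
Zbed3: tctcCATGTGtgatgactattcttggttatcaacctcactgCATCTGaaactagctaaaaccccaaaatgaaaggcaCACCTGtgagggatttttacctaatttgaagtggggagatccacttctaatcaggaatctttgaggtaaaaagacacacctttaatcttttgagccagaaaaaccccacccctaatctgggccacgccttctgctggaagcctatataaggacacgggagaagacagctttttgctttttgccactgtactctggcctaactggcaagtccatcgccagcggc
Spin1: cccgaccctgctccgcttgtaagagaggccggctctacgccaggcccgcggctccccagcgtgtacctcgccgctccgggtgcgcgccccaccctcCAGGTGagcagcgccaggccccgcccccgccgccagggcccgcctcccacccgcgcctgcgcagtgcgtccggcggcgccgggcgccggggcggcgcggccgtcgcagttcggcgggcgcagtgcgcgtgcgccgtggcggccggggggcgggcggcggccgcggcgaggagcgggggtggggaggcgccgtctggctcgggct
Oosp1: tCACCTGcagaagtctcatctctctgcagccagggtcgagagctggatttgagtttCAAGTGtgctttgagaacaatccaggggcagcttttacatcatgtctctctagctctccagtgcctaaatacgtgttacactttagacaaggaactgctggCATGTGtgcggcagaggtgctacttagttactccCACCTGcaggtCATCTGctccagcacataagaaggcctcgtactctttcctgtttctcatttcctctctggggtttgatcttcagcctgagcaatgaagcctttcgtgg
Zp3: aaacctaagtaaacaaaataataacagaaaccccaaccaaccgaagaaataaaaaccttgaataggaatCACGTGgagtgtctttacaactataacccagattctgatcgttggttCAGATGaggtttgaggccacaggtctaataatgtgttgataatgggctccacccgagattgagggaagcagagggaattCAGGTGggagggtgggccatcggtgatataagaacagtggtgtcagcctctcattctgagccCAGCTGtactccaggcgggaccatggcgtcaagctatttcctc
The Spin1 region held 51 CpG dinucleotides and 1 E-box, and the regions of Zbed3, Oosp1 and Zp3 held 4, 5 and 7 CpG dinucleotides and 3, 5 and 4 E-boxes.

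The same windows were searched for all genes with a RefSeq entry. Of the 100 most abundant genes 72 had one, and their median was 6 CpG dinucleotides, against 20 over 10329 detected genes, 7 over 4011 listed genes that were not detected and 7 over all 27025 windows. The letters CANNTG, which read the same on both strands, occurred in 62 of the 72 windows (86.1%), against 64.4% of the detected genes and 72.1% of all windows. The letters TAATTG, searched on both strands and part of sites that homeodomain proteins such as NOBOX bind, occurred in 13 of the 72 (18.1%), against 5.32% of the detected genes and 8.14% of all windows. TATAAA occurred in 11.1% of the 72, in 7.53% of the detected genes, in 15.1% of the genes that were not detected and in 14.2% of all windows. With 500 genes in place of 100, the median was 22 CpG dinucleotides, CANNTG occurred in 70.4% of 399 windows and TAATTG in 8.52%, so these figures hold for the first 100 and not for the larger set. These are descriptions of letters in a window and show no binding.

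Below Zbed3, Spin1 and Bcl2l10 the named genes formed a gradual slope. The linker histone of the egg, H1foo, had 6288, 6857 and 6578 TPM (6575 ± 285). Oosp1, which encodes an oocyte-secreted protein, had 5853, 6075 and 7270 TPM (6399 ± 762). The growth factor gene Gdf9 had 6435, 6619 and 5553 TPM (6202 ± 570). WT 3 was the highest pool for Oosp1 and the lowest for Gdf9, so the order of these genes was not the same in the pools. Omt2b (5536 ± 688 TPM), Khdc1b (5378 ± 761) and the oocyte homeobox gene Obox2 (5270 ± 822) came next, each lowest in WT 1 and highest in WT 3. Bpgm, which encodes bisphosphoglycerate mutase, had 4637 ± 292 TPM.

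Dppa3, which encodes STELLA, the protein that shields the maternal genome from DNA demethylation in the zygote, had 3883, 3755 and 5264 TPM (4301 ± 837). Its WT 3 value stood apart from the other two. Ldhb, the heart-type subunit of lactate dehydrogenase, had 4355, 4256 and 4035 TPM (4216 ± 164). The remaining named genes lay between 4202 TPM (Trim61) and 3099 TPM (Tcl1b1), namely Mphosph6, Oosp3, Omt2a, the chaperone gene Hsp90aa1, Ccdc82, the nucleolar protein gene Npm1, the late endosome GTPase gene Rab7, Rfpl4, Bmp15, the glycogen primer gene Gyg and D6Ertd527e. Of the 24 pairs of neighbours in the order of the 25 named genes, 2 had ranges that did not overlap, Zbed3 above Spin1 and Bcl2l10 above H1foo. The ranges of the other neighbours overlapped, which does not settle their order within a pool. Omt2b (4892, 5457 and 6260 TPM) was above Khdc1b (4640, 5337 and 6159 TPM) in every pool. Oosp1 was above Gdf9 in WT 3 only. The order within pools was not counted for all neighbours. Of the 25 genes 15 were lowest in WT 1 and 15 were highest in WT 3, and 12 were both.

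**Figure D2:**
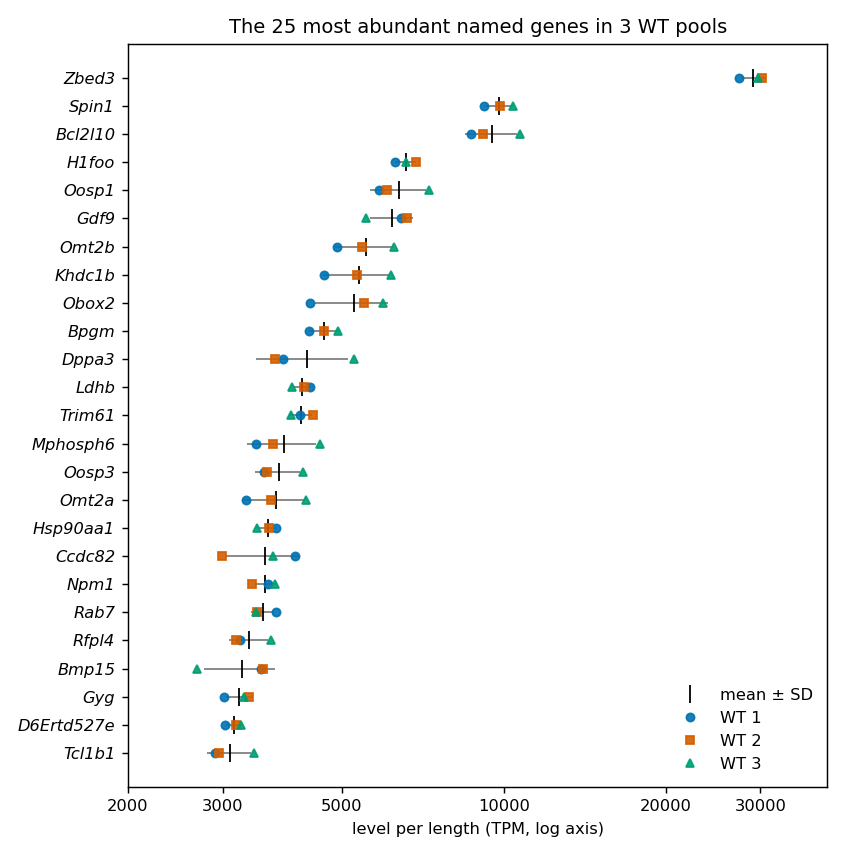
Level per length (x axis, TPM on a log axis) of the 25 most abundant named genes (y axis) in WT 1 (circles), WT 2 (squares) and WT 3 (triangles), with the mean as a tick and the SD over 3 pools as a line. Zbed3 stands alone near 29095 TPM, and from H1foo down the ranges of neighbours overlap.

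To reach 25 named genes, 8 predicted or clone-named genes among the first 33 were passed over. The highest of them, C86187, annotated as a long intergenic non-coding RNA on chromosome 7 (46967711 to 46975911, minus strand, GRCm38), was the gene with the second rank, at 10147, 10902 and 11625 TPM (10891 ± 739). Gm11545, annotated as an unprocessed pseudogene, had 8959 ± 1387 TPM, but its exons add up to 375 bases and a pseudogene can share reads with its parent gene. Among the 500 most abundant genes 482 were annotated as protein coding and 10 as long intergenic non-coding RNA. An annotated exon of Obox2 overlaps Obox1, and one of Trim61 overlaps Trim60, so reads of these neighbours cannot be fully told apart.

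Markers of the oocyte were mostly abundant. The lists were chosen with earlier results of these data known, so this is no independent check of the oocyte label. Zp3, Gdf9, Nlrp5 and Ooep were at 493 ± 75.4, 6202 ± 570, 1456 ± 45.1 and 1502 ± 165 TPM. All 21 listed genes of the list of oocyte markers were detected, with a median of 995 TPM. Among them Figla, a transcription factor of the zona genes in growing oocytes, was low at 5.64, 1.49 and 4.91 TPM, and the germ cell helicase gene Ddx4 had 29.8 ± 2.19 TPM.

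The medians of the gene lists spanned several orders of magnitude. Lists of oocyte function had the highest medians, 995 TPM for the oocyte markers, 1262 TPM for the subcortical maternal complex, 142 TPM for mRNA storage and translation, 109 TPM for deadenylation and decay, and 94.7 TPM for meiotic arrest and egg activation. Lists of markers for other cell types had the lowest, from 0.128 TPM for other lineages to 0.469 TPM for sperm and testis, apart from the cumulus and granulosa list with 5.14 TPM and the red blood cell list, of which the table held 2 genes. The order among these low lists depended on the pools: the oviduct median of 0.145 TPM was 0.0721 without WT 1 and 0.0268 without WT 2, the leukocyte median of 0.197 TPM was 0.124 and 0.117, and the endothelium and stroma median of 0.316 TPM was 0.199 without WT 1. The median over all genes was 3.41 TPM, and the list of oocyte growth factors and Kit was close to it at 3.83 TPM.

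**Figure D3:**
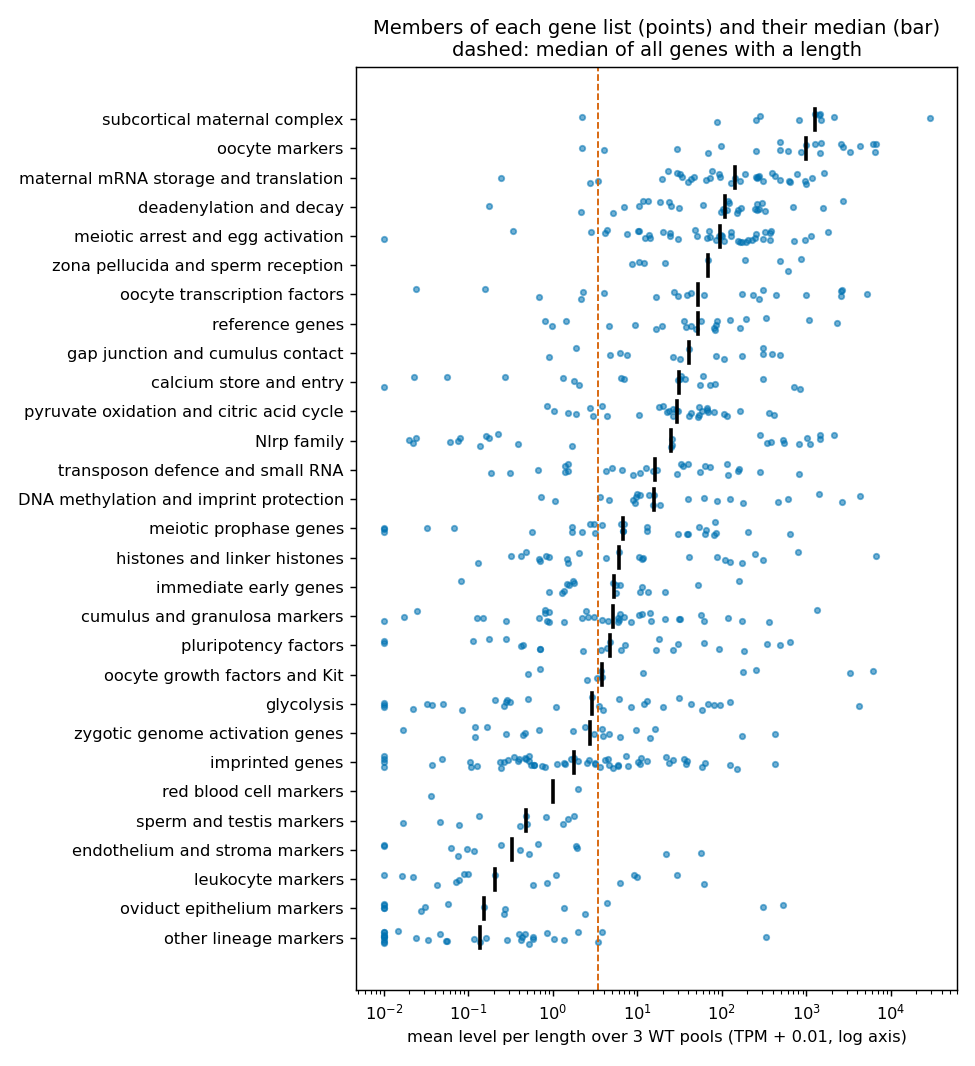
Mean level per length over the 3 WT pools (x axis, TPM + 0.01 on a log axis) of every listed member (points) of each of the 29 gene lists (y axis), with the median of the list as a black bar and the median of all genes, 3.41 TPM, as a dashed line. Points at the left edge are genes listed at 0, and in most lists the members spread over more than 100-fold.

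The subcortical maternal complex is a protein assembly under the egg's membrane that the cleavage-stage embryo needs. All 11 genes of the list were detected, and 9 were above 100 TPM. The list also holds Dnmt1 (1393 ± 148 TPM) and Ywhah (87.1 ± 9.87 TPM), and the counts and the median include them. Whether each listed gene belongs to the complex was not tested. Beside Zbed3, the NLR genes Nlrp9b (2206, 2132 and 2002 TPM, 2114 ± 103), Nlrp5 (1425, 1508 and 1436 TPM) and Nlrp4f (723, 827 and 898 TPM) were high. Ooep, a small KH domain protein of the complex, had 1661, 1332 and 1511 TPM, and Padi6, which the egg's cytoplasmic lattices need, had 1244, 1323 and 1219 TPM. Nlrp2, the gene the other samples lack, had 264, 326 and 265 TPM (285 ± 35.5), and Tle6 had 255 ± 18.4 TPM. Khdc3, which encodes the complex member FILIA, stood apart from its partners at 2.36, 1.66 and 2.58 TPM on 77, 63 and 116 reads. All of its pools were under the median of the detected genes. The predicted gene Gm20509 overlaps Khdc3 on the same strand, and how reads of the overlap were counted was not tested.

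Levels within the NLR family, which holds oocyte genes and inflammasome genes, lay far apart. Of 26 listed genes 16 were detected, and 11 were above 100 TPM. Nlrp14 (1455 ± 149 TPM), Nlrp4a (1091 ± 77.4) and Nlrp9a (1024 ± 33.0) joined Nlrp9b and Nlrp5 above 1000 TPM. The inflammasome gene Nlrp3 had 27, 0 and 20 reads, Nlrp6 had 1, 0 and 2 reads, and Nlrp1b had 21, 0 and 0 reads. The inflammasome gene Nlrc4 was detected at 25.4 ± 3.50 TPM. Members with near-identical copies, such as those of the Nlrp4 and Nlrp9 groups, may share reads.

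The zona pellucida is the glycoprotein coat of the egg. Its mouse components were ordered Zp1 (854 ± 70.3 TPM), Zp2 (610 ± 53.1) and Zp3 (493 ± 75.4). In WT 1 the levels of Zp2 and Zp3 were 549 and 536 TPM, and in WT 3 they were 636 and 406 TPM, so the ranges of these genes came close but did not overlap. All 9 genes of the list of zona and sperm reception were detected, with a median of 67.7 TPM. Izumo1r, which encodes the sperm receptor JUNO, had 217, 166 and 179 TPM. Astl, the protease that cleaves ZP2 after fertilization, had 73.4, 77.2 and 52.4 TPM, and Cd9, a tetraspanin needed for sperm fusion, had 27, 15.2 and 20.6 TPM.

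Gdf9 and Bmp15, whose proteins act on the granulosa and cumulus cells, were far above the other genes of the growth factor list at 6202 ± 570 and 3263 ± 494 TPM. The receptor gene Kit had 223, 274 and 254 TPM, and the ligand gene Bmp6 had 166, 182 and 180 TPM. Bmp15 was lower in WT 3 (2693 TPM) than in WT 1 and WT 2 (3531 and 3565 TPM), as Gdf9 was. The median of the 11 listed genes was 3.83 TPM, close to that of all genes. Fgf8, another ligand that oocytes secrete, had 16.1, 9.69 and 8.72 TPM. Kitl, whose protein is the granulosa ligand of KIT, had 2.04, 5.07 and 4.38 TPM.

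Transcription factors of the oocyte were led by Obox2 (5270 ± 822 TPM), the imprint zinc finger gene Zfp57 (2621 ± 63.3) and Obox5 (2574 ± 338). Of 22 listed genes 20 were detected, with a median of 52.8 TPM. Nobox, a homeobox gene of early folliculogenesis, was highest in WT 1 at 1189 TPM, against 954 and 841 TPM in WT 2 and WT 3. Among the pluripotency factors 16 of 25 were detected, with a median of 4.78 TPM (3.01 TPM without WT 1). Klf17 (682, 636 and 616 TPM), Sall4 (495, 507 and 442 TPM) and Dppa2 (354, 357 and 310 TPM) led this list, Pou5f1, which encodes OCT4, had 105, 77.2 and 92.8 TPM, and Sall1 and Utf1 were listed at 0.

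Genes that hold and release the meiotic arrest were nearly all present. Of 44 listed genes 42 were detected, 21 of them above 100 TPM, with a median of 94.7 TPM. Wee2, the oocyte kinase that inhibits CDK1, had 1624, 1866 and 1918 TPM (1803 ± 157). Bub1b, a spindle checkpoint kinase gene, had 1084, 1328 and 1004 TPM, and the cyclin B1 gene Ccnb1 had 872, 955 and 1032 TPM. Pttg1, which encodes securin, had 710 ± 78.3 TPM. Mos, the kinase gene upstream of the MAP kinases in the arrested egg, had 96.9, 137 and 59.6 TPM, a wide spread for an oocyte marker. Rec8, the meiotic kleisin of cohesin, was listed at 0, and whether this comes from how reads were assigned to it was not tested.

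Genes of meiotic prophase, a stage that mouse oocytes pass before birth, had a median of 6.74 TPM, and 24 of 30 were detected. Syce2, a central element gene of the synaptonemal complex, was the exception at 672, 581 and 671 TPM. Brca2, a gene of homologous recombination, had 201 ± 13.5 TPM, and the cohesin gene Smc1b had 85.5 ± 6.96 TPM. Stra8, the gene for the retinoic acid response at meiotic entry, Msx1 and Rec8 were listed at 0, with the same limit on what a 0 means.

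The machinery for storing and translating maternal mRNA was abundant, with 34 of 35 listed genes detected and 19 above 100 TPM. Eif4e1b, an oocyte form of the cap-binding protein, led with 1666, 1536 and 1579 TPM (1594 ± 66.5). The RNA-binding protein gene Lsm14b had 1178, 1214 and 1096 TPM. Eif4enif1, which encodes the eIF4E-binding protein 4E-T, had 1019, 997 and 942 TPM. Among deadenylation and decay genes 29 of 30 were detected. Btg4, an adaptor that brings the CCR4-NOT deadenylase to maternal mRNA, had 2504, 2660 and 2916 TPM (2693 ± 208). The decapping gene Dcp1a had 1557, 1614 and 1531 TPM, and the deadenylase gene Cnot7 had 592, 725 and 773 TPM. Eif4e1b and Dcp1a overlapped in range, while Btg4 was above and Cnot7 below both of them in every pool.

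Genes that the mouse embryo switches on at the start of its own transcription were low, with 11 of 21 detected and a median of 2.75 TPM. Arg2 (444, 430 and 415 TPM) and Sp110 (176, 165 and 172 TPM) were the exceptions. Exons of Arg2 overlap Vti1b and exons of Sp110 overlap G530012D18Rik on the opposite strand, so these values may hold reads of both genes. Tcstv1 had 20.3, 16.4 and 12.4 TPM, and Zscan4d had 14.0, 10.4 and 17.5 TPM. The Zscan4 genes are near-identical copies, so their reads may be split or shared. The 2-cell stage factor gene Zfp352 had 0, 18 and 2 reads, and Dux had 28, 1 and 3.

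Among regulators of DNA methylation 22 of 23 listed genes were detected, with a median of 15.5 TPM. Below Dppa3 and Zfp57, the maintenance methyltransferase gene Dnmt1 had 1344, 1558 and 1276 TPM (1393 ± 148), and its partner Uhrf1 had 460, 471 and 456 TPM. The dioxygenase gene Tet3 had 616, 613 and 565 TPM. The writers of growing oocytes were much lower, Dnmt3a with 61.2 ± 7.30 TPM and its cofactor gene Dnmt3l with 18.3 ± 2.88 TPM. Kdm1b, the histone demethylase named in the title of the series, had 166, 186 and 185 TPM. Imprinted genes had a median of 1.75 TPM (1.12 TPM without WT 1), and 44 of 59 were detected. Mest (371, 430 and 458 TPM), Blcap (149 ± 6.34) and Gnas (125 ± 2.10) led them, and H19, Mkrn3, Peg12 and Rtl1 were listed at 0. Exons of Mest overlap Copg2 and exons of Gnas overlap Nespas on the opposite strand, so these values may hold reads of both genes.

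Of the histone genes 18 of 25 were detected. H1foo exceeded each other member, followed by Slbp, which encodes the stem-loop binding protein of histone mRNA (725, 806 and 855 TPM), and the replacement histone gene H3f3b (303, 297 and 321 TPM). In the family of replication-dependent histone genes, whose mRNAs end in a stem-loop instead of a poly(A) tail, 18 of 54 were detected, with a median of 0.333 TPM. Of the transposon defence and small RNA genes 26 of 28 were detected, with a median of 16.3 TPM. The tudor domain gene Tdrd1 had 910, 832 and 698 TPM, Dicer1 had 282 ± 25.6 TPM and Mael had 161 ± 9.62 TPM.

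The mouse egg is known to feed on pyruvate and to use little glucose. Of 31 glycolysis genes 19 were detected, with a median of 2.93 TPM, against 31 of 32 genes of pyruvate oxidation and the citric acid cycle, with a median of 29.8 TPM. By sum the order was reversed, with 4791 TPM for the glycolysis list, most of it Ldhb, and 1962 TPM for the other. The medians depend on which genes were listed and do not rank the pathways. Ldhb was at 4216 ± 164 TPM and Ldha at 38.1, 5.97 and 16.6 TPM. Below Ldhb the next members were Gapdh (172, 96.3 and 109 TPM) and the glucose transporter gene Slc2a1 (108, 95.7 and 80.2 TPM). Hk3, Pklr and Eno1 were listed at 0. Eno1 is an enzyme gene of most cells, and its near-identical copy Eno1b was listed with 72.7, 38.97 and 56.0 normalized counts, so the 0 of Eno1 need not mean an absent transcript. Citrate synthase (Cs, 424, 380 and 420 TPM), dihydrolipoamide dehydrogenase (Dld, 349, 365 and 366 TPM) and the succinate dehydrogenase gene Sdha (173, 165 and 159 TPM) led the citric acid cycle.

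Of the calcium and zinc handling genes 17 of 20 were detected, with a median of 31.02 TPM. The calcium pump gene of the endoplasmic reticulum Atp2a2 had 805, 912 and 779 TPM, while its relative Atp2a3 was listed at 0. The zinc importer genes Slc39a10 and Slc39a6 had 707 ± 63.0 and 305 ± 15.6 TPM. Itpr1, the calcium release channel of egg activation, had 67.0, 73.4 and 74.7 TPM. All 15 genes of cumulus contact were detected, with a median of 40.8 TPM. The catenin gene Ctnnb1 had 496, 480 and 479 TPM, the oocyte connexin gene Gja4 had 405, 448 and 320 TPM, and E-cadherin (Cdh1) had 308, 374 and 247 TPM.

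Genes often used as references were not at a common level. All 22 listed ones were detected, from Ywhaz at 2316 ± 47.8 TPM and Eef1a1 at 1076 ± 81.2 TPM to Ppib at 0.801 ± 0.461 TPM. Sdha, Ywhaz and Tbp varied least, with SDs of 0.00982, 0.0299 and 0.0376 on the log2(normalized count + 1) scale. Hprt had 320, 302 and 364 TPM, and Actb had 248, 156 and 168 TPM. Gapdh, Actb, H2afz (128, 59.3 and 76.5 TPM), Rplp0 (106, 60.1 and 82.9 TPM) and Rps18 (27.3, 9.85 and 13.3 TPM) were each highest in WT 1 and lowest in WT 2. B2m had 84.1 ± 21.96 TPM, Tubb5 56.5 ± 7.90, Rpl13a 49.0 ± 9.41, Pgk1 42.7 ± 8.31, Ppia 37.6 ± 8.61, Eef1e1 35.6 ± 1.27 and Polr2a 19.7 ± 2.52 TPM. Tfrc (9.32 ± 2.00 TPM) and Gusb (0.973 ± 0.225) were under the median of the detected genes. Of the 82 cytosolic ribosomal protein genes 78 were detected, with a median of 29.2 TPM, and they summed to 5455, 3498 and 4328 TPM. Again WT 1 was the highest pool and WT 2 the lowest.

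Markers of the cumulus and granulosa cells, which surround the oocyte and were removed before extraction, were present at mostly low levels. Of 38 listed markers 31 were detected, 4 were above 100 TPM, 12 were under 1 TPM, and Amh was listed at 0. The list took 0.217%, 0.175% and 0.194% of the normalized counts of WT 1, WT 2 and WT 3. Rgs2, a regulator of G protein signalling that oocytes also express, accounted for much of that, at 1322, 1244 and 1410 TPM. Without it the shares were 0.110%, 0.0743% and 0.0772%. The steroid enzyme gene Hsd3b1 had 616, 162 and 315 TPM, and Fam110c had 174, 192 and 153 TPM. Cumulus expansion genes were lower, with Tnfaip6 at 42.1, 21.5 and 31.5 TPM, Ptgs2 at 34.3, 22.3 and 35.9 TPM, and Has2 at 3.58, 0.944 and 2.84 TPM. The defining granulosa factor gene Foxl2 had 1.35, 0.3485 and 0.3504 TPM on 70, 21 and 25 reads.

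Markers of other cells were mostly low, and in the oviduct, leukocyte, endothelium and other lineage lists 1 or 2 members stood above the rest. Of 15 oviduct epithelium genes 5 were detected. Tubb4b (521, 518 and 542 TPM) and Cdh1 were the high ones, and Cdh1 is also on the list of cumulus contact genes. Ovgp1, the secreted glycoprotein of the oviduct, had 9, 8 and 39 reads, the cilium factor gene Foxj1 had 0, 7 and 0 reads, and Cldn3, Dynlrb2, Krt19 and Lcn2 were listed at 0. Of 17 leukocyte genes 5 were detected. Ms4a1 (65.5, 62.4 and 58.6 TPM) and Cd4 (35.8, 29.2 and 23.8 TPM) were the highest of them. The macrophage genes Csf1r and Adgre1 had 13, 4 and 11 reads and 7, 4 and 0 reads, and Tyrobp was listed at 0. Pecam1 (56.2 ± 7.83 TPM) and Tek (22.1 ± 2.60 TPM) led the endothelium and stroma list, while the endothelial cadherin gene Cdh5 had 97, 22 and 20 reads, and Acta2 and Lum were listed at 0. Of 11 sperm and testis genes 1 was detected, Akap4 at 2.28, 1.18 and 1.02 TPM. The 33 markers of other lineages had a median of 0.128 TPM, with 9 listed at 0 (Adipoq, Apoa1, Cdx2, Ckm, Gfap, Krt14, Nefl, Prl and Syp) and the neuronal tubulin gene Tubb3 high at 322, 348 and 323 TPM. Of the red blood cell markers 2 were in the table, and Alas2 had 1.95 ± 0.702 TPM. Immediate early genes, which respond to handling in many cells, were detected in 17 of 18 cases, led by Dusp1 (185, 137 and 153 TPM) and Egr1 (63.2, 42.6 and 50.1 TPM).

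The pools were close for abundant genes and further apart for rare ones. Across the 14736 genes that averaged 10 or more normalized counts, Spearman's rho across genes was 0.971 between WT 1 and WT 2, 0.974 between WT 1 and WT 3 and 0.979 between WT 2 and WT 3. These correlations are over genes, which are not independent replicates. Between WT 1 and WT 2, 78.3% of genes were within 2-fold of each other, and between WT 2 and WT 3 it was 82.7%. No pair of pools was a repeat of the same library, as the chi-square per degree of freedom was at least 55.5.

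Spread between pools depended on abundance. The median coefficient of variation was 66.3% for genes with a mean of 10 to 100 normalized counts, 23.9% from 100 to 1000, 10.7% from 1000 to 10000, 7.43% from 10000 to 100000 and 7.06% above that. As a reference for depth, counting alone would give medians of 16.4%, 5.32%, 1.78%, 0.683% and 0.248% in the same bins. The median SD of log2(normalized count + 1) was 0.267 over all 14736 genes. The common biological coefficient of variation, estimated with edgeR and with counting error taken off, was 0.449, or 0.263 as the trend at the median abundance. The median over single genes ran from 86.8% in the lowest bin to 8.95% in the highest.

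**Figure D4:**
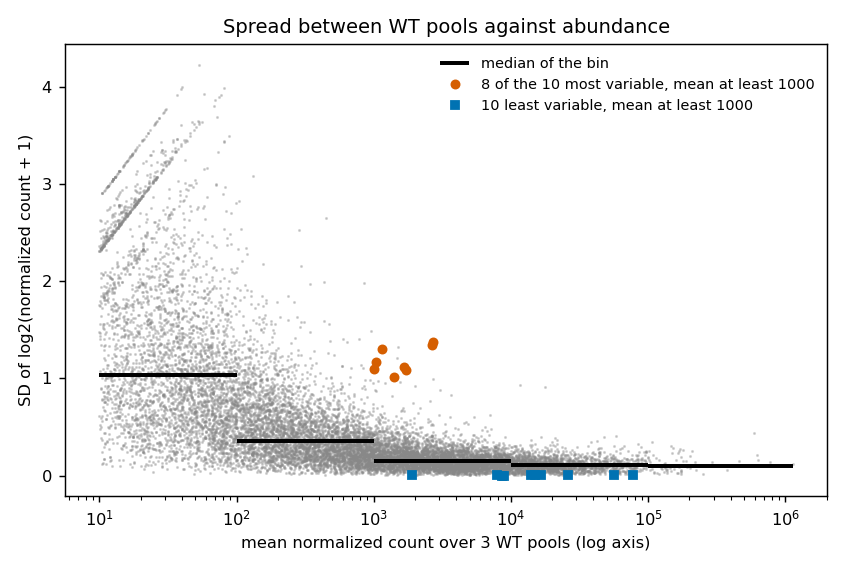
SD of log2(normalized count + 1) over the 3 WT pools (y axis) against the mean normalized count (x axis, log axis) for genes with a mean of at least 10 (grey points), with the median of each bin as a black line. The median declines from 1.03 in the lowest bin to 0.103 in the highest, the streaks at the upper left are genes with no read in 1 or 2 pools, and 8 of the 10 most variable genes (circles) and the 10 least variable genes (squares) with a mean of at least 1000 are marked.

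Of the 10 most variable genes with a mean of at least 1000 normalized counts 8 are reported. Sparc, a matrix glycoprotein gene on chromosome 11 (55394500 to 55423183, minus strand, GRCm38), had 5757, 924 and 1437 normalized counts in WT 1, WT 2 and WT 3. The endothelial receptor gene Heg1 had 5195, 810 and 2003 normalized counts, and Ldha had 2116, 348 and 991 normalized counts. Sdc4, Ahnak, Zeb2 and Ltbp1 completed the group with Xist, the RNA that coats the inactive X chromosome (2449, 596 and 1194 normalized counts). All 8 were lowest in WT 2 and highest in WT 1. The ratio of the highest to the lowest pool was between 3.96 (Ltbp1) and 6.42 (Heg1). Xist overlaps its antisense gene Tsix, and reads of the overlap cannot be told apart without strand.

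The 10 least variable genes by the same rule were Arfgef2 (8932, 8943 and 8933 normalized counts), Tex10 (8621, 8602 and 8611), Brwd3, Igsf3, Las1l, the spindle checkpoint kinase gene Ttk (56450, 56442 and 56913), Trim60, Atg2a, Trim44 and the splicing factor gene Rbm39. Their SDs on the log2 scale were between 0.00102 and 0.00768. A small SD over these pools, picked from 6058 genes, does not show that a gene is steadier than the others.

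The most variable genes had another pool order than the rest. These counts are over the 6058 genes with a mean of at least 1000 that are neither predicted genes nor pseudogenes. Among the 100 of them with the largest SD, 76 were highest in WT 1 and 60 were lowest in WT 2. Among all 6058, 26.4% were highest in WT 1 and 22.6% were lowest in WT 2. Of those 6058 genes 74 (1.222%) differed by more than 2-fold between the highest and the lowest pool. Among the 100 genes most abundant per length none did, 67 of them were lowest in WT 1 and 64 were highest in WT 3.

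Cumulus markers were also highest in WT 1 and lowest in WT 2 by their mean. Of the 31 detected markers 23 were highest in WT 1 and 16 were lowest in WT 2, against 4715 and 4225 of all 13174 detected genes. Rarer genes in general also leaned to this order, by the median deviation from a gene's own log2 mean. At 10 to 100 normalized counts it was 0.244 in WT 1 and -0.185 in WT 2. From 100 to 1000 it was 0.0852 and -0.0561, and from 1000 to 10000 it was -0.0302 and 0.0272. The markers were not compared with genes of like abundance. The mean of log2(normalized count + 1) over the list was 8.39 in WT 1, 7.33 in WT 2 and 7.78 in WT 3. Foxl2, Lhcgr (2.12, 0.0848 and 0.179 TPM) and Amhr2 (3.32, 0.323 and 0.387 TPM) were highest in WT 1. Lhcgr rested on 258, 12 and 30 reads and Amhr2 on 106, 12 and 17. Other markers went another way. Cyp19a1 (47.5, 57.0 and 63.7 TPM) and Kitl (2.04, 5.07 and 4.38 TPM) were lowest in WT 1. Nr5a1 was highest in WT 3, on 67, 9 and 129 reads, and Amh was at 0 in each pool. With the median over the markers in place of the mean the values were 8, 7.90 and 7.76, and WT 3 was then the lowest pool. The immediate early genes had the same order, with means of 8.13, 7.29 and 7.55 and 14 of 17 detected genes highest there. WT 1 had the fewest reads of the 3 pools and the largest share of ribosomal RNA precursor. The part of these values in the spread of Sparc, Heg1, Ldha and the other variable genes was not tested.

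**Figure D5:**
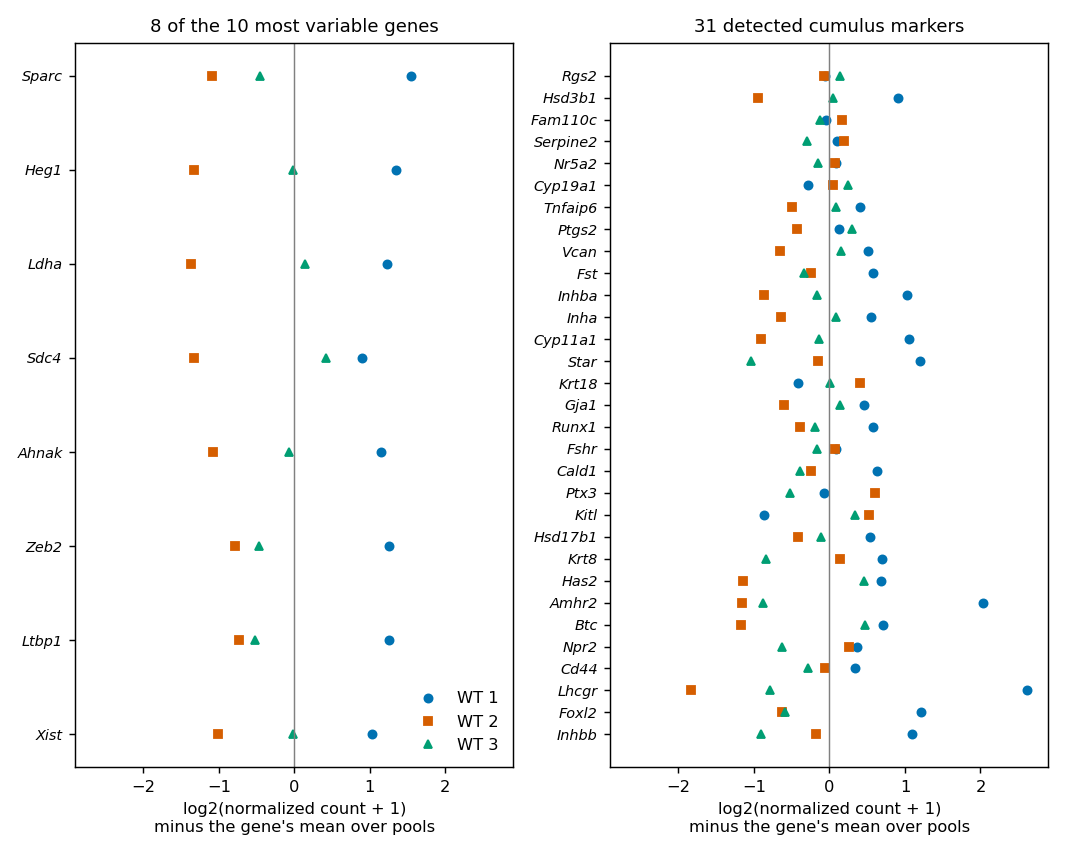
Deviation of each pool from the gene's own mean over 3 pools, in log2(normalized count + 1) (x axis), for 8 of the 10 most variable genes (left) and the 31 detected cumulus and granulosa markers (right), with WT 1 as circles, WT 2 as squares and WT 3 as triangles. WT 2 is lowest for all 8 genes on the left, and WT 1 is highest for 23 of the 31 markers on the right.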

How the data were processed

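The values used are a gene-level signal from the deposited table: normalized counts, which the authors obtained by scaling counts with 1 size factor per pool, as the file name and the values show. Dividing by a pool's smallest step gave whole reads for 100% of the values (tolerance 0.01). The submitters' processing notes name DESeq2 1.22.2, DESeq and HOMER, the aligners TopHat2 2.0.9 and STAR 2.5.0a, the counters HTSeq and featureCounts 1.5.0-p1, and mm10 and GRCm38 as builds. They do not tie a tool to this table. Neither its annotation nor the use of strand in counting was given in the sources used here. Of 135 named genes checked, 34 have an exon that overlaps another gene, 9 on the same strand and 28 on the opposite strand, and their values may hold reads of both. A second deposited table, of assembled transcripts without gene names, was not used.

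TPM was computed with Python 3.11.15 (pandas 2.3.3) from normalized counts and the union of a gene's exons in GENCODE M21 (GRCm38). Of the symbols 18214 matched directly, 518 through an older name, and 219 had no length and no TPM. The biological coefficient of variation came from edgeR 4.0.16 (R 4.3.3), with an intercept only and TMM scaling, on recovered reads of genes averaging 10 or more. On simulated data the read recovery and the edgeR step returned what was put in. Only 1 group enters, so no contrast was tested and there are no p values. Precision is set by the spread between pools at these depths.

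Named are Zp3, Gdf9, Nlrp5 and Ooep, the 25 most abundant genes, the 3 highest members and the members at 0 of each of 29 lists, the reference genes, and the 10 most and 10 least variable genes averaging 1000 or more normalized counts. Predicted genes and pseudogenes were passed over in the rankings. Some genes that the rule names are not reported here. Genes beyond that rule were named after their values were seen. The members and lists were chosen with earlier results of these data known. Alternatives changed the read minimum, the gene length, the filter, the pseudocount, the scaling and the dispersion, or left out each pool in turn.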

Additional observations from a re-analysis of the deposited data

How the results depend on the processing

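Counting genes under 3 summed reads gave 1800 genes at 0 in place of 1153, and leaving out 1 pool gave 1628 to 1785, the highest without WT 3. With the longest transcript as gene length the 10 and 100 most abundant genes held 8.53% and 28.7%, with no length correction 6.92% and 21.8%, and without predicted genes the 100 held 29.8%. The median SD was 0.322 with no filter, 0.192 and 0.139 with means of at least 100 and 1000, and 0.189 to 0.236 with a pool left out, the lowest without WT 1. The biological coefficient of variation was 0.523 with no filter, 0.263 as the trend at the median abundance (which differs from the common value by over 1.5 times), and 0.380 to 0.476 with a pool left out. With at least 1 and 100 reads in each pool 14837 and 10165 genes were detected, and with 10 reads in any 1 pool 15860. Other pseudocounts and scalings of the median SD stayed within the spread. Of the 25 named genes 22 stayed with the longest transcript, 11 by normalized count, and 24, 24 and 25 without WT 1, WT 2 and WT 3. The levels of 25 of 28 named genes moved by more than the SD with the longest transcript. Of the list medians 13 of 87 moved with a pool left out and 12 of 29 with the longest transcript. No paired analysis was possible because the values come from 1 group and no test. Depth limits what can be said of genes at 0 and of genes under 100 normalized counts, where the spread between pools is widest, and of overlapping or near-identical genes.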

Other observations

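In several gene families known from other tissues 1 member stood above the others in the wild-type egg. These families were described after their values were seen. Of 213 listed olfactory receptor genes 35 were detected, with a median of 0.0436 TPM, and 45 were listed at 0. Olfr976 stood out with 206, 189 and 178 TPM, followed by Olfr288 with 45.0, 42.7 and 49.2 TPM. Of 15 beta-defensin genes, which encode antimicrobial peptides of epithelia, 2 were detected, and Defb8 had 993, 821 and 720 TPM (845 ± 138). Of 99 vomeronasal receptor genes 9 were detected, and Vmn2r51 had 47.6, 32.4 and 39.4 TPM. Among 33 interleukin genes the lymphocyte growth factor gene Il7 had 132, 150 and 152 TPM. The 335 solute carrier genes had many high members, with 22 above 100 TPM and a median of 1.98 TPM, and Slc45a3 led them with 1271, 1246 and 1305 TPM. Each of these genes was detected in all 3 pools.

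Some abundant genes lay near each other on chromosomes. In 12 runs of at least 3 genes among the 500 most abundant, with neighbouring starts at most 250 kb apart, 47 genes held 7.41% of the summed TPM. Less abundant genes may lie between the members of a run. How many runs another 500 detected genes would form was not counted, so these values do not show that abundant genes cluster. The Tcl1 genes on chromosome 12 (105146014 to 105222793, GRCm38) held 9152 TPM over 6 genes, led by Tcl1b1 (3099 ± 294) and Tcl1 (2251 ± 162). A stretch of chromosome 9 (78182774 to 78489151) with Gsta4, Omt2a, Omt2b, Ooep and Eef1a1 held 12229 TPM. Oog3 (2686, 3043 and 3558 TPM) and Pramef12 (1602, 1476 and 1525 TPM) lay in a run on chromosome 4, and Oas1d (2494 ± 416 TPM) and Oas1c (1477 ± 169 TPM) in one on chromosome 5. Of the 8 listed Oas1 genes Oas1a, the form known for its response to interferon, was at 1.10 ± 0.233 TPM. Of 22 Fbxw genes all were detected, led by Fbxw24 (1439, 1831 and 1958 TPM) on chromosome 9. On that chromosome 44 of 744 detected genes (5.91%) were among the 500 most abundant, against 3.82% over all chromosomes. It is given as the highest share of the chromosomes counted. The next was 4.97% on chromosome 6, and the lowest was 1.68% on chromosome 16. The 44 genes include a run of 6 Fbxw genes and the run of 5 genes with Omt2a and Ooep. Genes of 1 family within such a run can be similar in sequence, so reads may be shared between them.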
